A study of Homo sapiens with 10 samples.

Results

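Integrins, laminins, collagens and netrins, together with fibronectin, link a cell to its surrounding matrix. Integrins are cell surface receptors made of an alpha and a beta chain. Laminins are trimers of an alpha, a beta and a gamma chain that form the basement membrane sheet under epithelia, where they meet the type IV collagen network. The other collagens form fibrils, decorate fibrils, build filaments and networks, or anchor the basement membrane to the stroma. Netrins are relatives of the laminin short arms, and netrin-4 (*NTN4*) is a basement membrane component that binds laminin.

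The genes were chosen by name and by count, that is, every symbol of an integrin chain, laminin chain, collagen chain or netrin that stood in both RNA-seq count tables, plus *FN1*, with at least 3 counts in at least 2 of the 6 libraries. Of 83 such symbols 72 met the count rule, among 19695 genes in either table and 18262 in both. These 72 genes encode 22 integrin chains, 11 laminin chains, 32 collagen chains, 6 netrins and fibronectin. The 11 symbols below the rule were *COL1A2*, *COL22A1*, *COL23A1*, *COL25A1*, *COL5A3*, *COL6A5*, *COL8A1*, *COL9A1*, *ITGA11*, *ITGA4* and *ITGAD*. Just inside the rule stood *COL28A1*, with 0 and 0 counts with control siRNA, 3 and 1 with *TRPS1* siRNA and 5 and 2 with *CHD4* siRNA, and just outside stood *ITGA4*, with 0 and 0, 2 and 3, and 1 and 0 counts. The rule read the same libraries as the comparisons, and 9 of the 72 genes met it through knockdown libraries alone, so no direction is read from their having been kept.

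All samples were T47D, an established human luminal breast cancer cell line, and no genetic change to the line is stated. RNA-seq covered cells 72 h after transfection with control siRNA, *TRPS1* siRNA or *CHD4* siRNA, with 2 libraries in each of the 3 groups. TRPS1 is a GATA-type zinc finger protein that represses transcription, and CHD4 is the ATPase of the NuRD chromatin remodelling complex. ChIP-seq with TRPS1 antibodies, 2 libraries against 2 input libraries, gave a single list of 1844 peaks. For the *CHD4* knockdown the labels name an siRNA and the RNA-seq methods an shRNA, and which of the siRNA sequences was sequenced is not stated. Nothing says that the 2 libraries of a group came from separate cultures, so p-values measure only the spread between these libraries, which may be technical.

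Levels are given as CPM, that is, counts scaled by library total with TMM factors over the 6 libraries, whose totals ran from 10333138 to 14668358 counts, so that 3 counts were 0.198 to 0.284 CPM. *TRPS1* was read at 1418 and 2323 CPM with control siRNA and at 1149 and 727 with its own siRNA, a log2 fold change of -0.97 (SE 0.39, adjusted p = 0.659) that stayed just under a 2-fold drop, with an unadjusted p under 0.05. *CHD4* was read at 295 and 292 CPM with control siRNA and at 96.2 and 54.2 with *CHD4* siRNA, a log2 fold change of -1.96 (SE 0.42, adjusted p = 0.784). Control replicate 1 stood apart from the other libraries. On the first principal component (63.4% of the variance) it lay at -114.6 and the other 5 libraries between 9.41 and 30.7, and the correlation of log CPM between replicates, across genes, was 0.881 for control siRNA against 0.976 for *TRPS1* siRNA and 0.967 for *CHD4* siRNA. Among the 46 genes of the set that were tested in any comparison, 18 differed over 2-fold between the 2 control libraries, 11 of them higher in replicate 1 and 7 higher in replicate 2, against 4 between the *TRPS1* siRNA libraries and 3 between the *CHD4* siRNA libraries. Both knockdowns were compared with these same controls, so their fold changes are not independent of each other. Values against each control library alone are therefore given for several genes, and the genes whose direction turns with the control are named.

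The 10 luminal epithelial markers were all detected, with a summed level of 15852 and 14039 CPM in the controls and of 6885 to 9571 CPM in the 4 knockdown libraries. The 10 include *TRPS1*, itself an siRNA target, and in the controls most of the sum was *KRT8*, *KRT18* and *KRT19*. By the threshold defined below, the keratins *KRT8* and *KRT19* were called lower in both knockdowns and *KRT18* with *CHD4* siRNA, and the other luminal markers were not called, with log2 fold changes of the 10 from -1.88 to 0.37 with *TRPS1* siRNA and from -1.85 to 0.28 with *CHD4* siRNA. Basal epithelial markers summed to 17.0 and 14.9 CPM in the controls and to 31.9 to 52.2 CPM in the knockdowns. The defining marker *KRT5* was under 3 counts in every library, *TP63*, a basal transcription factor, stood at 1.94 and 1.93 CPM in the controls and 5.82 to 25.0 CPM in the knockdowns, and *ACTA2*, smooth muscle actin, at 14.7 and 13.0 CPM against 22.1 to 28.4 CPM. Fibroblast markers summed to 3.31 and 4.17 CPM in the controls, 21.0 and 5.49 with *TRPS1* siRNA and 20.7 and 14.1 with *CHD4* siRNA, with *PDGFRA* and *DCN* under 3 counts in every library and *POSTN* in neither table. Most of the high sum with *TRPS1* siRNA was *VIM*, at 17.0 CPM in replicate 1 and 2.25 in replicate 2, against 1.73 and 2.93 CPM in the controls and 1.13 and 1.44 with *CHD4* siRNA. Most of the sum with *CHD4* siRNA was *THY1*, at 17.3 and 10.8 CPM, against 1.58 and 1.08 CPM in the controls and 3.59 and 2.45 with *TRPS1* siRNA. *PDGFRB*, also on the fibroblast list, held 0 and 1 counts in the controls, 2 and 10 with *TRPS1* siRNA and 21 and 22 with *CHD4* siRNA. Leukocyte markers ranged from 4.82 to 9.13 CPM in sum and endothelial markers from 0.0719 to 1.41 CPM, with *CD3E*, *PECAM1* and *CDH5* under 3 counts throughout. The endothelial marker *VWF* held 0 and 1 counts in the controls, 5 and 2 with *TRPS1* siRNA and 15 and 8 with *CHD4* siRNA. The part of these shifts in the results below was not tested, and in bulk RNA fewer cells of a kind and less RNA per cell cannot be told apart.

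Silencing *TRPS1* asks which matrix and adhesion genes change when this repressor is lowered. Against control siRNA, 3 collagen genes and a netrin gene rose by the study's threshold of over 2-fold with an unadjusted p under 0.05, namely *COL27A1* (4.59-fold), *COL5A2* (3.98-fold), *COL7A1* (3.18-fold) and *NTN4* (2.96-fold). A single gene of the set fell, *ITGAL*, to 0.346 of its control level. No laminin chain passed the threshold. These were 4 of 45 tested genes higher (8.89%), where 2.7% of all 12921 tested genes were called higher, and 1 of 45 lower (2.22%), where 3.17% of all genes were called lower. At a Benjamini-Hochberg adjusted p under 0.05 edgeR's quasi-likelihood test called 0 genes, which is 0% of all tested, though 902 genes and 5 of the set had an unadjusted p under 0.05, and the lowest adjusted p of the set was 0.659. With the likelihood ratio test 34 genes (0.263%) passed, *COL5A2* among them with an adjusted p of 0.043 (0.0021 to 1.00 over the alternatives), and with DESeq2 32 genes (0.248%), none of them of the set.

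Silencing *CHD4* asks the same of the remodelling subunit. Here 7 genes of the set rose and none fell by the study's threshold. They were the collagen genes *COL27A1* (7.14-fold), *COL8A2* (5.6-fold), *COL5A2* (3.38-fold) and *COL5A1* (2.8-fold), the laminin genes *LAMC3* (5.06-fold) and *LAMB3* (2.44-fold), and *NTN4* (3.42-fold). They made up 15.6% of 45 tested genes, where 2.6% of all 12918 tested genes were called higher and 2.85% lower. One of the 7, *COL8A2*, passed the filter on low counts through the *CHD4* siRNA libraries alone. Again 0 genes (0%) had an adjusted p under 0.05 in edgeR's quasi-likelihood test, with 769 genes and 7 of the set at an unadjusted p under 0.05 and a lowest adjusted p of 0.749 in the set. The likelihood ratio test passed 58 genes (0.449%) and DESeq2 50 genes (0.387%), in each case including *COL27A1* (adjusted p of 0.0044 and 0.0059) and *NTN4* (0.039 and 0.036). Over all alternatives the adjusted p ranged from 0.0044 to 1.00 for *COL27A1* and from 0.013 to 1.00 for *NTN4*. *COL27A1*, *COL5A2* and *NTN4* passed the study's threshold in both knockdowns, and with 2 libraries a group an exact permutation test of a single gene could not go below p = 0.3333.

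**Figure D1:**
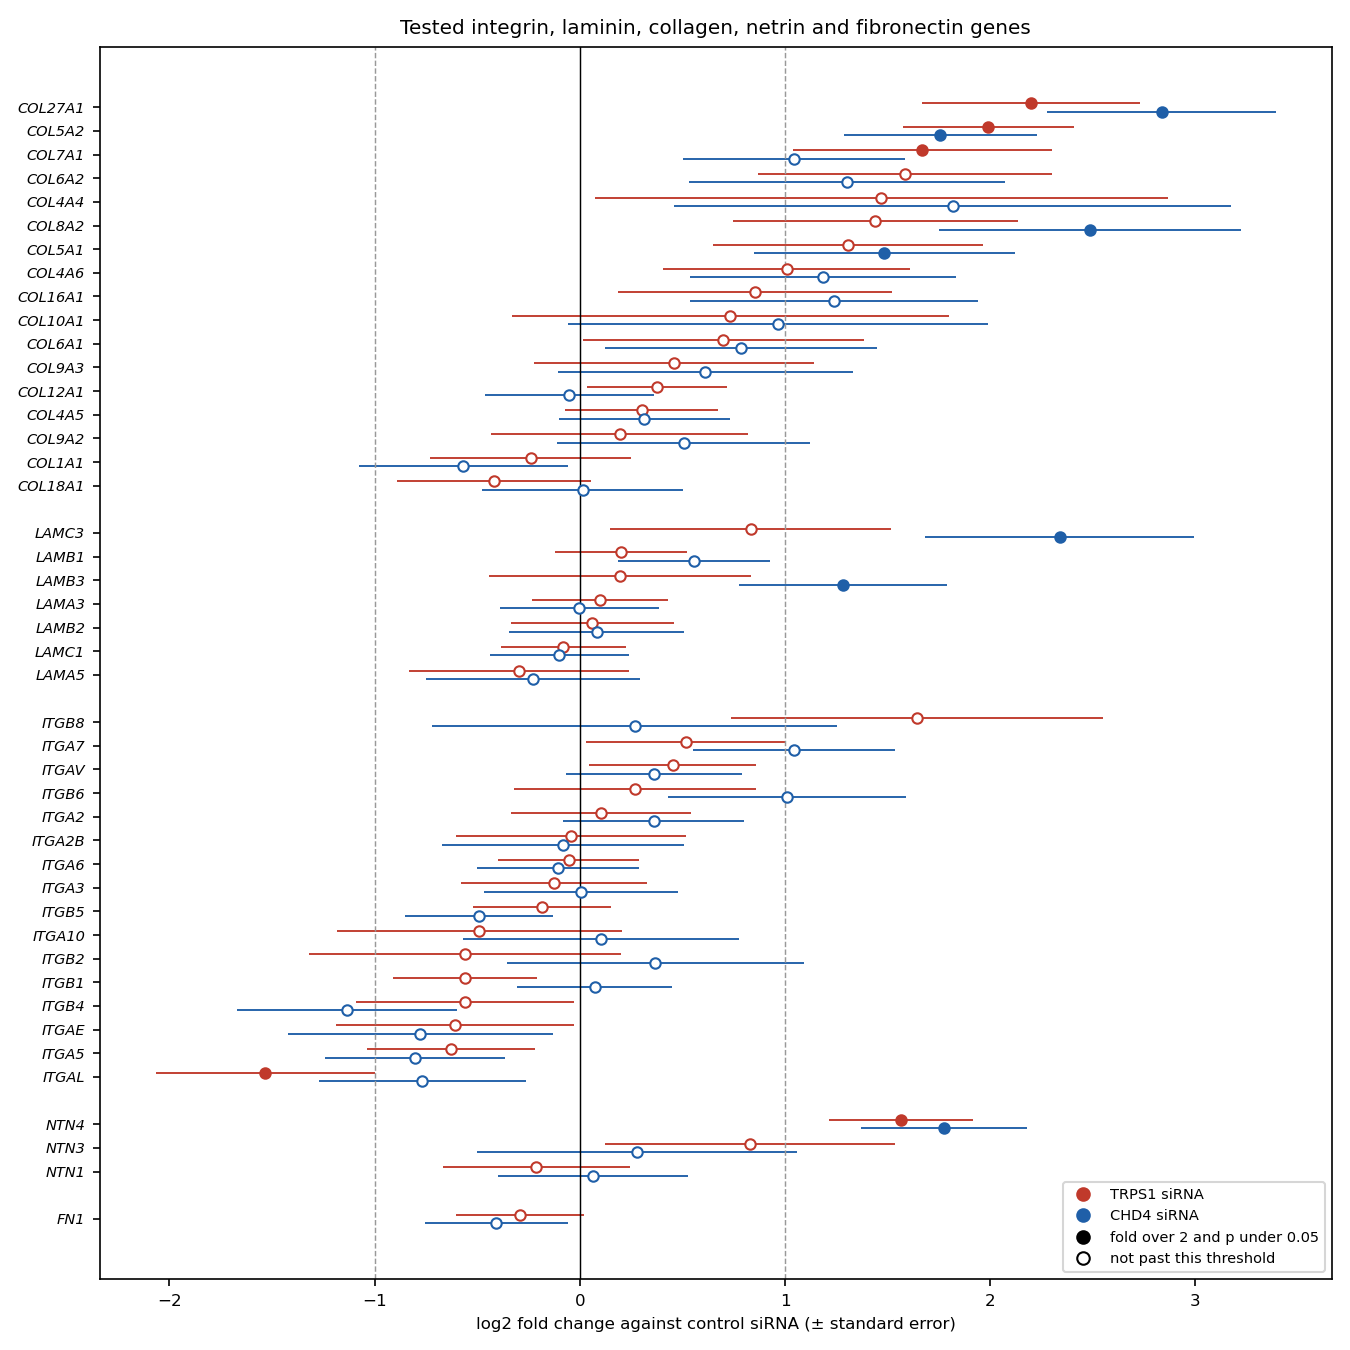
Log2 fold change (± standard error) of 44 of the 45 tested genes of the set against control siRNA, for *TRPS1* siRNA in red and *CHD4* siRNA in blue. Filled points passed the study's threshold of over 2-fold (dashed lines) with an unadjusted p under 0.05, and these lie among the collagens, laminins and *NTN4*, with *ITGAL* at -1.53 the lowest point.

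Among the tested genes of the set the highest fold change in either knockdown was that of a fibril-forming collagen. *COL27A1*, a fibril-forming collagen known from cartilage, was read at 2.95 and 2.63 CPM with control siRNA, 15.8 and 9.66 with *TRPS1* siRNA, and 26.3 and 13.5 with *CHD4* siRNA. All 4 knockdown libraries lay above both controls, and the controls lay close together. The log2 fold change was 2.20 (SE 0.53, adjusted p = 0.659) with *TRPS1* siRNA and 2.84 (SE 0.56, adjusted p = 0.749) with *CHD4* siRNA. Against either control library alone it was 2.31 and 2.08 with *TRPS1* siRNA and 2.96 and 2.73 with *CHD4* siRNA. Leaving out *TRPS1* siRNA replicate 1 gave 1.78 and ended that call, while for *CHD4* siRNA the gene stayed past the threshold in each of 14 alternative analyses.

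*COL5A2* and *COL5A1* encode chains of type V collagen, which helps to start and to limit the width of collagen fibrils. *COL5A2* stood at 5.68 and 4.87 CPM with control siRNA, 19.8 and 22 with *TRPS1* siRNA, and 16.8 and 18.7 with *CHD4* siRNA. Its groups did not overlap and the libraries within each group were close. Its log2 fold change was 1.99 (SE 0.42, adjusted p = 0.659) with *TRPS1* siRNA and 1.76 (SE 0.47, adjusted p = 0.792) with *CHD4* siRNA. For *COL5A1* the values were 2.3 and 6.87 CPM with control siRNA, 13.9 and 8.4 with *TRPS1* siRNA, and 13.7 and 11.6 with *CHD4* siRNA. The knockdown libraries again lay above both controls, but the controls differed from each other, with replicate 1 the lower. Its log2 fold change was 1.48 (SE 0.64, adjusted p = 0.792) with *CHD4* siRNA, with an unadjusted p only just under 0.05, and 1.31 (SE 0.66, adjusted p = 0.659) with *TRPS1* siRNA. Without control replicate 1 the *CHD4* siRNA value was 0.93 and below the 2-fold line. *COL1A1*, the type I collagen chain and the fibril-forming member with the most counts, was read at 153 and 64.9 CPM with control siRNA, 104 and 80.6 with *TRPS1* siRNA, and 88.7 and 59 with *CHD4* siRNA. It overlapped between groups, with log2 fold changes of -0.24 (SE 0.49) and -0.57 (SE 0.51) that did not pass. With *TRPS1* siRNA it was 0.55 against control replicate 2 alone and -0.75 against control replicate 1 alone. *COL2A1*, of cartilage collagen, was too low to test, with 19 and 8 counts in the controls, 34 and 7 with *TRPS1* siRNA and 21 and 5 with *CHD4* siRNA.

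Among the anchoring, beaded-filament and network collagens, *COL7A1*, the collagen of the anchoring fibrils below the basement membrane, was read at 28.3 and 12.3 CPM with control siRNA, 92.8 and 35.9 with *TRPS1* siRNA, and 53.4 and 30.4 with *CHD4* siRNA. Replicate 1 was the higher library in every group; the lower *TRPS1* siRNA library, at 35.9 CPM, stood above the higher control, at 28.3 CPM. This gave a log2 fold change of 1.67 (SE 0.63, adjusted p = 0.659) with *TRPS1* siRNA, 2.43 without control replicate 1 and 0.81 without *TRPS1* siRNA replicate 1, where it no longer passed. With *CHD4* siRNA it was 1.04 (SE 0.54, adjusted p = 0.792). *COL8A2*, a network collagen known from the corneal endothelium, was low, at 0.719 and 1.39 CPM with control siRNA, 3.02 and 2.65 with *TRPS1* siRNA, and 7.13 and 4.64 with *CHD4* siRNA. The 3 groups did not overlap and *CHD4* siRNA was the highest. It passed with *CHD4* siRNA, at a log2 fold change of 2.49 (SE 0.74, adjusted p = 0.792), and did not with *TRPS1* siRNA, at 1.44 (SE 0.70, adjusted p = 0.659). It was kept for testing by the knockdown libraries alone, since neither control exceeded 2 CPM.

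*COL6A1* and *COL6A2* encode chains of type VI collagen, which forms beaded filaments, and the study lists primers for *COL6A2*. *COL6A2* stood at 4.31 and 2.16 CPM with control siRNA, 14.4 and 5.09 with *TRPS1* siRNA, and 12.4 and 3.68 with *CHD4* siRNA. The lower library of each knockdown lay near the higher control, and with *CHD4* siRNA the groups overlapped. For *COL6A2* the log2 fold change was 1.59 (SE 0.72, adjusted p = 0.659) with *TRPS1* siRNA and 1.30 (SE 0.77, adjusted p = 0.792) with *CHD4* siRNA, neither past the threshold. For *COL6A1* the libraries read 34.4 and 8.8 CPM with control siRNA, 44.7 and 25.8 with *TRPS1* siRNA, and 47.5 and 27.6 with *CHD4* siRNA. Its controls differed 3.91-fold, and the *TRPS1* siRNA value was 2.04 against control replicate 2 alone and 0.01 against control replicate 1 alone. Type IV collagen had 3 of 6 genes above the filter and none passed. *COL4A5*, the one with the most counts, was read at 41.2 and 51.1 CPM with control siRNA, 67 and 45.5 with *TRPS1* siRNA, and 70.6 and 43.4 with *CHD4* siRNA, with log2 fold changes of 0.30 (SE 0.37) and 0.31 (SE 0.42). *COL4A4* was at 0 counts in control replicate 1 and at 2.47 CPM in control replicate 2, against 3.21 to 4.56 CPM in the knockdowns, and its fold change has no interpretable size for that reason. *COL12A1*, a fibril-associated collagen, was read at 2087 and 3064 CPM with control siRNA, 3804 and 2785 with *TRPS1* siRNA, and 3193 and 1731 with *CHD4* siRNA, and *COL18A1*, a basement membrane collagen that carries the endostatin domain, at 86.4 and 44 CPM with control siRNA, 59.5 and 37.8 with *TRPS1* siRNA, and 83.1 and 48.9 with *CHD4* siRNA. Both overlapped between groups, with log2 fold changes from -0.42 to 0.37.

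Taking the collagens as a family, 17 of 32 were tested against controls. With *TRPS1* siRNA 3 passed upwards, where 2.7% of all genes did, and none downwards, and the median log2 fold change was 0.85, with a range from -0.42 to 2.20. With *CHD4* siRNA 4 passed upwards, where 2.6% of all genes did, and none downwards, with a median of 1.04 and a range from -0.57 to 2.84. Over all tested genes the median was -0.02 in both comparisons. The corresponding medians were 0.15 and 0.25 for 8 laminin genes and -0.15 and 0.04 for 16 integrin genes.

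**Figure D2:**
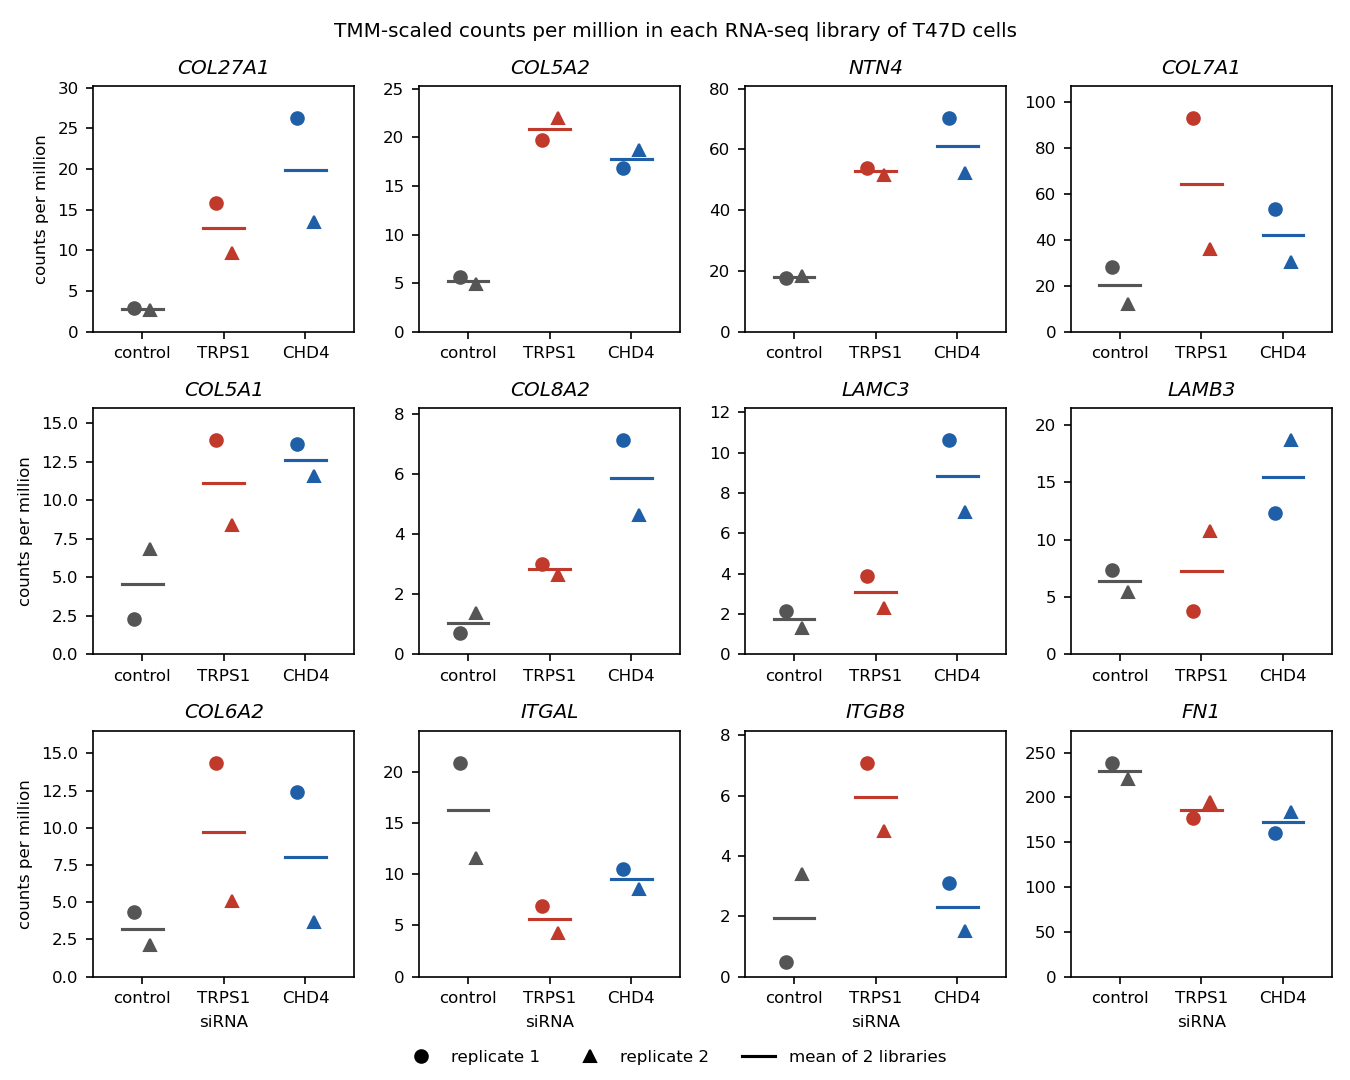
TMM-scaled levels (CPM) of 12 genes in each of the 6 libraries, with circles for replicate 1, triangles for replicate 2 and a line at the mean of the 2. *COL27A1*, *COL5A2* and *NTN4* show tight controls below all knockdown libraries, whereas *COL5A1* and *ITGB8* show controls that differ from each other.

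Laminin genes were called with *CHD4* siRNA. *LAMC3*, a gamma chain, was read at 2.16 and 1.31 CPM with control siRNA, 3.87 and 2.32 with *TRPS1* siRNA, and 10.6 and 7.04 with *CHD4* siRNA. The *CHD4* siRNA libraries were the highest, and the *TRPS1* siRNA libraries lay just above the controls. This was a log2 fold change of 2.34 (SE 0.65, adjusted p = 0.792) with *CHD4* siRNA and 0.83 (SE 0.69, adjusted p = 0.715) with *TRPS1* siRNA. *LAMB3*, the beta chain of the laminin that serves hemidesmosomes, was read at 7.33 and 5.41 CPM with control siRNA, 3.78 and 10.7 with *TRPS1* siRNA, and 12.3 and 18.6 with *CHD4* siRNA. *CHD4* siRNA lay above both controls and *TRPS1* siRNA straddled them. Its log2 fold change was 1.28 (SE 0.51, adjusted p = 0.792) with *CHD4* siRNA and 0.19 (SE 0.64, adjusted p = 0.928) with *TRPS1* siRNA. The laminin chains with the most counts were not called. *LAMC1* was read at 242 and 269 CPM with control siRNA, 239 and 239 with *TRPS1* siRNA, and 239 and 234 with *CHD4* siRNA, *LAMB2* at 566 and 324 CPM with control siRNA, 523 and 402 with *TRPS1* siRNA, and 567 and 375 with *CHD4* siRNA, and *LAMA5* at 1043 and 416 CPM with control siRNA, 759 and 429 with *TRPS1* siRNA, and 793 and 458 with *CHD4* siRNA. Their log2 fold changes ran from -0.30 to 0.08, and *LAMA5* and *LAMB2* were higher in replicate 1 than in replicate 2 in every group. Their direction turned with the control. Against control replicate 2 alone *LAMA5* was at 0.56 with *TRPS1* siRNA and 0.64 with *CHD4* siRNA, and against control replicate 1 alone at -0.83 and -0.76.

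Netrin-4 was called in both knockdowns. *NTN4* stood at 17.6 and 18.4 CPM with control siRNA, 54 and 51.7 with *TRPS1* siRNA, and 70.3 and 52.2 with *CHD4* siRNA. The controls agreed within 1 CPM and all knockdown libraries lay above them. The log2 fold change was 1.57 (SE 0.35, adjusted p = 0.659) with *TRPS1* siRNA and 1.77 (SE 0.40, adjusted p = 0.792) with *CHD4* siRNA, and it was the same to 2 decimals against either control alone, 1.57 and 1.78. Leaving out either *TRPS1* siRNA library gave 1.52 and 1.61 but ended the call, in a fit of both controls with 1 knockdown library. *NTN1*, the netrin with the most counts and a guidance cue for axons, was read at 127 and 58.5 CPM with control siRNA, 83.7 and 76.2 with *TRPS1* siRNA, and 101 and 93.1 with *CHD4* siRNA. Both knockdowns overlapped the controls, with log2 fold changes of -0.21 (SE 0.46) and 0.06 (SE 0.46), while both *CHD4* siRNA libraries lay above both *TRPS1* siRNA libraries. *NTN3* had log2 fold changes of 0.83 (SE 0.71) and 0.28 (SE 0.78). Among 7 netrin receptor genes 4 were tested. *UNC5C* rose with *CHD4* siRNA, from 4.75 and 8.65 CPM to 17.6 and 15.8 CPM (log2 fold change 1.34, SE 0.50, adjusted p = 0.792), and none was called with *TRPS1* siRNA.

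Of 16 integrin genes tested against control siRNA 1 passed with *TRPS1* siRNA, *ITGAL*, which was lower. With that siRNA 2.7% of all genes were called higher and 3.17% lower. With *CHD4* siRNA none of the 16 passed, where 2.6% of all genes were called higher and 2.85% lower. *ITGAL* encodes the alpha chain of the leukocyte integrin LFA-1, whose beta chain is *ITGB2*. It was read at 20.8 and 11.6 CPM with control siRNA, 6.9 and 4.3 with *TRPS1* siRNA, and 10.5 and 8.56 with *CHD4* siRNA. All knockdown libraries lay below both controls, and control replicate 1 was the highest. With *TRPS1* siRNA the log2 fold change was -1.53 (SE 0.53, adjusted p = 0.659), and with *CHD4* siRNA it was -0.77 (SE 0.50, adjusted p = 0.798). It was -1.02 with *TRPS1* siRNA without control replicate 1. *ITGB2* was read at 2.3 and 2.32 CPM with control siRNA, 0.756 and 2.32 with *TRPS1* siRNA, and 4.03 and 1.92 with *CHD4* siRNA and overlapped between the groups. The defining leukocyte marker *CD3E* was under 3 counts in every library.

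The integrin genes with the most counts showed no called change against control siRNA. *ITGB1*, the beta chain shared by most matrix-binding integrins, was read at 204 and 323 CPM with control siRNA, 166 and 187 with *TRPS1* siRNA, and 253 and 295 with *CHD4* siRNA, with log2 fold changes of -0.56 (SE 0.35, adjusted p = 0.674) and 0.07 (SE 0.38, adjusted p = 0.972). *ITGB4*, the beta chain of hemidesmosomes, was read at 311 and 109 CPM with control siRNA, 134 and 152 with *TRPS1* siRNA, and 87.5 and 105 with *CHD4* siRNA. Control replicate 1 was the outlying value there, 2.85 times the other control, and the log2 fold changes were -0.56 (SE 0.53) and -1.13 (SE 0.54, adjusted p = 0.792). Against control replicate 2 alone they were 0.43 with *TRPS1* siRNA and -0.13 with *CHD4* siRNA, and against control replicate 1 alone -1.14 and -1.71, both called lower, so the direction with *TRPS1* siRNA turned with the control. Its alpha partner *ITGA6* had log2 fold changes of -0.05 and -0.11. *ITGA3*, the other laminin-binding chain of epithelia, was read at 82.1 and 38.7 CPM with control siRNA, 52.5 and 58.2 with *TRPS1* siRNA, and 66.1 and 55.3 with *CHD4* siRNA, with log2 fold changes of -0.13 and 0.01. *ITGA2*, a collagen-binding chain, was read at 39.8 and 81 CPM with control siRNA, 52.7 and 75.2 with *TRPS1* siRNA, and 74.7 and 78.3 with *CHD4* siRNA, and *ITGAV*, which binds the RGD motif of matrix proteins, at 64.1 and 127 CPM with control siRNA, 127 and 131 with *TRPS1* siRNA, and 109.9 and 132 with *CHD4* siRNA. For both, control replicate 1 was the lowest library and the log2 fold changes lay between 0.10 and 0.45.

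*ITGA5*, the alpha chain of the fibronectin receptor, was read at 78.2 and 45.9 CPM with control siRNA, 37 and 43.1 with *TRPS1* siRNA, and 32.3 and 38.7 with *CHD4* siRNA, and its ligand *FN1* at 239 and 220.5 CPM with control siRNA, 177 and 195 with *TRPS1* siRNA, and 161 and 184 with *CHD4* siRNA. In each case all 4 knockdown libraries lay below both controls, and neither gene passed. The log2 fold changes of *ITGA5* were -0.63 (SE 0.41, adjusted p = 0.677) and -0.80 (SE 0.44, adjusted p = 0.792), and those of *FN1* were -0.29 (SE 0.31, adjusted p = 0.768) and -0.41 (SE 0.35, adjusted p = 0.808). *ITGB5* was read at 121 and 107 CPM with control siRNA, 112 and 87.6 with *TRPS1* siRNA, and 83.9 and 77.7 with *CHD4* siRNA, with -0.18 (SE 0.34) and -0.49 (SE 0.36). *ITGA10* stood at 7.91 and 3.01 CPM with control siRNA, 4.82 and 2.98 with *TRPS1* siRNA, and 6.75 and 5.04 with *CHD4* siRNA. Both knockdowns overlapped the controls, and both *CHD4* siRNA libraries lay above both *TRPS1* siRNA libraries. *ITGB6* and *ITGB8* pair with the *ITGAV* chain and bind latent TGF-beta. *ITGB6* was read at 12.3 and 42.6 CPM with control siRNA, 28.3 and 36.6 with *TRPS1* siRNA, and 55.2 and 53.4 with *CHD4* siRNA and *ITGB8* at 0.503 and 3.4 CPM with control siRNA, 7.09 and 4.83 with *TRPS1* siRNA, and 3.09 and 1.52 with *CHD4* siRNA. In both, control replicate 1 was far below control replicate 2. The log2 fold changes of *ITGB8* were 1.64 (SE 0.91, adjusted p = 0.664) and 0.27 (SE 0.99, adjusted p = 0.954), and those of *ITGB6* were 0.27 (SE 0.59) and 1.01 (SE 0.58, adjusted p = 0.792). With *TRPS1* siRNA *ITGB6* was at -0.35 against control replicate 2 alone and 1.38 against control replicate 1 alone.

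Counted without a test, the 2 libraries of *TRPS1* siRNA both lay above both controls for 16 of 45 genes (35.6%), where this held for 21.5% of all tested genes, and both lay below for 6 genes (13.3%), where 22.5% of all genes did. With *CHD4* siRNA 14 genes (31.1%) lay above, where 18.8% of all genes did, and 7 genes (15.6%) below, where 20.7% did. The genes above in both knockdowns were *COL16A1*, *COL27A1*, *COL4A4*, *COL4A6*, *COL5A1*, *COL5A2*, *COL7A1*, *COL8A2*, *ITGA7*, *LAMB1*, *LAMC3* and *NTN4*, and those below in both were *FN1*, *ITGA5*, *ITGAE*, *ITGAL* and *LAMC1*. The controls are the same in both counts, and the share of all genes that lay above or below in both knockdowns was not computed. These names are therefore a list only, and no result about the set is read from them. *COL8A2* passed the filter on low counts through the knockdown libraries alone.

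Fitting each knockdown against a single control library shows which values rest on which control. Without control replicate 1, 11 of the 45 genes (24.4%) were called higher with *TRPS1* siRNA, where 5.48% of all genes were, and 1 lower, where 2.52% were. Without control replicate 2, 11 genes were called higher, where 19.2% of all genes were, and 3 (6.67%) lower, where 14.5% were. With *CHD4* siRNA the calls were 13 higher (28.9%) and none lower without control replicate 1, where 5.47% and 2.15% of all genes were called, and 12 higher (26.7%) and 4 lower (8.89%) without control replicate 2, where 17.5% and 13.4% were. At an adjusted p under 0.05 the fits with *TRPS1* siRNA gave 4 genes of the set (8.89%) without control replicate 1, where 1.87% of all genes passed, and 17 (37.8%) without control replicate 2, where 47.7% did. With *CHD4* siRNA 0 genes passed without control replicate 1 (0% of all), and 15 (33.3%) without control replicate 2, where 30.7% of all genes did. The log2 fold change had opposite signs against the 2 controls for 17 of 45 genes in each comparison. In both knockdowns these were *COL18A1*, *COL1A1*, *COL9A2*, *ITGA10*, *ITGA2*, *ITGA2B*, *ITGA3*, *ITGA6*, *LAMA3*, *LAMA5*, *LAMB2* and *NTN1*. With *TRPS1* siRNA *COL10A1*, *COL9A3*, *ITGB4*, *ITGB6* and *LAMB3* joined them, and with *CHD4* siRNA *COL12A1*, *ITGAV*, *ITGB1*, *ITGB8* and *NTN3*. The genes called higher against each control alone were *COL27A1*, *COL5A2*, *COL7A1* and *NTN4* with *TRPS1* siRNA, and *COL27A1*, *COL5A2*, *COL8A2*, *LAMB3*, *LAMC3* and *NTN4* with *CHD4* siRNA. *ITGAL* was called lower with *TRPS1* siRNA against each control alone, at log2 fold changes of -1.02 without control replicate 1 and -1.93 without control replicate 2. The remaining calls differed with the control. *COL6A1*, *COL6A2*, *COL9A2*, *COL9A3* and *COL16A1* were called higher only against control replicate 2, and *COL10A1*, *COL4A4*, *COL4A6*, *COL5A1*, *ITGB6* and *ITGB8* only against control replicate 1, in both knockdowns. A fit with 1 control takes its spread from the knockdown pair. Leaving out a knockdown library instead, with both controls kept, ended most calls. With *TRPS1* siRNA the calls of *COL27A1* and *COL7A1* were lost without replicate 1, that of *COL5A2* without replicate 2, and those of *NTN4* and *ITGAL* without either. With *CHD4* siRNA those of *NTN4* and *LAMC3* were lost without replicate 1, and those of *COL5A1*, *COL5A2*, *COL8A2* and *LAMB3* without either. In each of these fits the number of genes called over all tested genes fell as well.

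**Figure D3:**
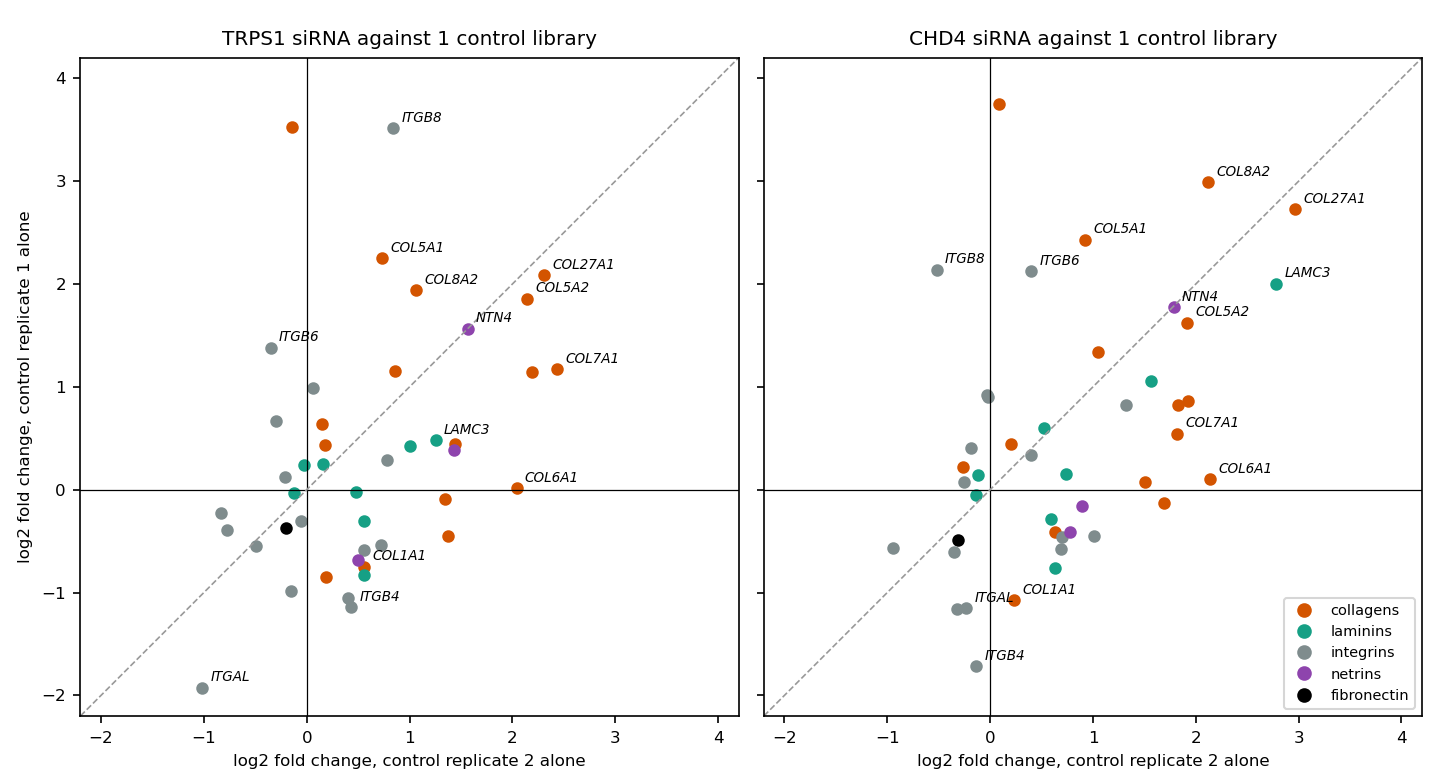
Log2 fold change of 44 tested genes of the set against control replicate 2 alone (horizontal) and against control replicate 1 alone (vertical), for *TRPS1* siRNA on the left and *CHD4* siRNA on the right, with the line of equality dashed. *NTN4*, *COL27A1* and *COL5A2* lie near the line and *COL6A1* and *ITGB8* far from it, and *COL4A4* is left out because control replicate 1 held 0 counts.

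The 2 knockdowns were also compared with each other, without the controls, which asks where silencing *CHD4* and silencing *TRPS1* differ. With *CHD4* siRNA 2 of 46 tested genes of the set were higher by the study's threshold (4.35%), where 2.12% of all 13143 tested genes were, and 1 was lower (2.17%), where 1.56% were. *LAMC3* was 2.88-fold higher (log2 1.52, SE 0.39, adjusted p = 0.172) and *COL8A2* 2.07-fold higher (log2 1.05, SE 0.35, adjusted p = 0.249). *ITGB8* was lower, at a log2 difference of -1.37 (SE 0.45, adjusted p = 0.239). In quasi-likelihood tests 0 genes (0%) had an adjusted p under 0.05, with 2023 at an unadjusted p under 0.05, 6 of them of the set. The likelihood ratio test gave 570 genes (4.34%), including *LAMC3* with an adjusted p of 0.017 (5.21e-06 to 1.00 over the alternatives), DESeq2 gave 456 genes (3.47%) and none of the set, and a fit with the replicate block gave 3372 genes (25.7%) and 15 of the set. Across genes, the deviations of same-numbered knockdown libraries correlated at 0.615, so the 0 genes above hold for the quasi-likelihood fit without the replicate block. *LAMC3* passed the study's threshold in each of 14 alternatives. *COL8A2* lost it with all 6 libraries in one fit and without either *TRPS1* siRNA library or *CHD4* siRNA replicate 1, and *ITGB8* with all 6 libraries and without *TRPS1* siRNA replicate 1 or *CHD4* siRNA replicate 2.

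*ITGB1*, *ITGB4* and *ITGB6* encode integrin beta chains that differed between the knockdowns by less than 2-fold. *ITGB1* was higher with *CHD4* siRNA than with *TRPS1* siRNA by 0.64 on the log2 scale (SE 0.16, adjusted p = 0.159) and *ITGB6* by 0.74 (SE 0.18, adjusted p = 0.161), and *ITGB4* differed by -0.57 (SE 0.16, adjusted p = 0.195), each with an unadjusted p under 0.05. *LAMB3* differed by 1.08 (SE 0.49, adjusted p = 0.368) and *ITGAL* by 0.78 (SE 0.33, adjusted p = 0.337). *COL27A1*, *COL5A2* and *NTN4*, called in both knockdowns, differed by 0.65 (SE 0.40, adjusted p = 0.504), -0.23 (SE 0.19, adjusted p = 0.626) and 0.21 (SE 0.20, adjusted p = 0.668). These p-values do not show that the responses were equal. Both libraries lay above the other pair for 12 genes (26.1%), where this held for 23.1% of all genes, and below for 5 genes (10.9%), where 23.7% did.

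Of the 72 genes 27 were too low for the tests against control siRNA, and 26 for any test. Several were at or near 0 counts in the controls. *ITGB7*, a beta chain of lymphocyte integrins, had 0 and 1 counts in the controls, 26 and 15 with *TRPS1* siRNA and 21 and 12 with *CHD4* siRNA. Per count sequenced this was a ratio of 47.2 with *TRPS1* siRNA (95% exact counting interval 8.01 to 1910) and of 42.2 with *CHD4* siRNA (7.06 to 1715). *LAMA2*, a laminin chain of muscle basement membrane, had 0 and 2, 17 and 17, and 44 and 17 counts, with ratios of 19.6 (5.02 to 168) and 39.0 (10.3 to 329). *COL6A3*, the third type VI collagen chain, had 0 and 0 counts in the controls, 4 and 2 with *TRPS1* siRNA and 23 and 7 with *CHD4* siRNA, which is at least 2.3-fold and at least 12.8-fold higher than a floor of 3 counts over both controls. *COL21A1* likewise had 0 and 0, 7 and 10, and 2 and 4 counts, at least 6.52-fold and at least 2.56-fold higher. *NTN5* went the other way, with 35 and 3 counts in the controls, 11 and 2 with *TRPS1* siRNA and 7 and 4 with *CHD4* siRNA. Control replicate 1 held nearly all of its control counts. Intervals and floors cover counting error only, not the spread between libraries, and *ITGB7*, *LAMA2*, *COL6A3* and *COL21A1* met the count rule through knockdown libraries alone. These examples were chosen after their values were seen.

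Of 45 tested genes that work with these proteins, 1 (2.22%) was called higher and none lower with *TRPS1* siRNA, where 2.7% and 3.17% of all genes were. With *CHD4* siRNA 2 (4.44%) were called higher and 2 (4.44%) lower, where 2.6% and 2.85% of all genes were. Of 18 tested integrin adaptors and kinases none was called with *TRPS1* siRNA, and with *CHD4* siRNA *PARVA* and *PARVB*, the parvins that tie integrin-linked kinase to actin, fell by 1.34 (SE 0.45, adjusted p = 0.792) and by 1.26 (SE 0.53, adjusted p = 0.792) on the log2 scale. *PARVA* was read at 21.4 and 21 CPM with control siRNA, 17.4 and 19.5 with *TRPS1* siRNA, and 6.94 and 9.68 with *CHD4* siRNA. Of 13 tested collagen-modifying enzymes and the collagen chaperone none was called against control siRNA, with ranges from -0.93 to 1.09 and from -0.56 to 1.45. *SDC4*, a heparan sulfate receptor for fibronectin, was read at 138 and 179 CPM with control siRNA, 262 and 244 with *TRPS1* siRNA, and 413 and 361 with *CHD4* siRNA and rose with *CHD4* siRNA (log2 1.30, SE 0.36, adjusted p = 0.792), the single call among 7 tested basement membrane components and other matrix receptors. *DST*, whose epithelial product links *ITGB4* to keratin, was read at 125 and 278 CPM with control siRNA, 496 and 401 with *TRPS1* siRNA, and 388 and 345 with *CHD4* siRNA and rose with *TRPS1* siRNA (log2 1.18, SE 0.44, adjusted p = 0.659), the single call among 3 hemidesmosome partners. Between the knockdowns *UNC5B* (log2 1.35) and the lysyl oxidase relative *LOXL3* (1.03) were higher with *CHD4* siRNA, and *FERMT1* (-1.17) and *PARVA* (-1.14) lower.

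Where TRPS1 lay near these genes was read from the peak list, whose positions are on hg38. Of the 72 genes 12 had a peak inside the gene or within 100 kb of a start site, 15 gene and peak pairs in all. Start sites were listed in RefSeq for 52 of the 72 genes, and for the other 20 the nearer gene end was used. Those 20 genes could not be named as having the nearest listed start of a peak. Of the 52 genes 8 had such a peak (15.4%), compared with 21.6% of 11928 genes with a listed start and at least 3 counts in 2 libraries. No peak lay within 5 kb of a start site of the set. The list gives positions alone, does not say whether the replicates were pooled, and has no enrichment or depth, so peaks carry no error here.

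*NTN4* held 2 peaks inside the gene, at chr12:95718035-95718385 and chr12:95721405-95721678, 351 and 274 bp wide and 3.02 kb apart. The gene lies on the minus strand from 95657807 to 95791155 of chromosome 12, and the peaks were 72.6 and 69.2 kb downstream of its nearest listed start. *NTN4* had the nearest listed start of any gene for both peaks, and whether they are exonic or intronic was not analysed here. Among the genes called with a knockdown, *COL5A2* had 2 peaks, at chr2:189486387-189486859 and chr2:189487247-189488118, 45.5 and 46.6 kb beyond its higher coordinate, where *WDR75* had the nearest listed start. *COL5A2* itself had no listed start. *LAMB3* had 1 peak 95.4 kb upstream, at chr1:209747642-209748008, where *TRAF3IP3* had the nearest listed start, 8.23 kb away. *ITGAL* had 1 peak 35.3 kb beyond its higher coordinate, at chr16:30558345-30558590, which lay 0.093 kb from the start of *ZNF764*. *COL27A1*, *COL7A1*, *COL8A2*, *COL5A1* and *LAMC3* had none in the window.

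Genes with a peak that were not called included *ITGB5* (chr3:124837784-124838021) and *COL28A1* (chr7:7416200-7416448), each with 1 peak inside the gene. For the *ITGB5* peak *LOC124906277* had the nearest listed start. The peak at chr21:46048234-46048523 lay 49.7 kb upstream of *COL6A2* and 43.3 kb beyond the higher coordinate of *COL6A1*, with *LOC105372842* nearer. The others were *ITGA10* (8.78 kb upstream, with *RBM8A* nearer), *ITGB6* (52.2 kb upstream, with *LINC02478* nearer), *ITGA5* (59.8 kb downstream of the start, past the gene, with *COPZ1* nearer) and *COL2A1* (15.9 and 17.4 kb beyond its higher coordinate, with *LOC124902927* nearer). Distance does not show which gene a peak acts on.

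**Figure D4:**
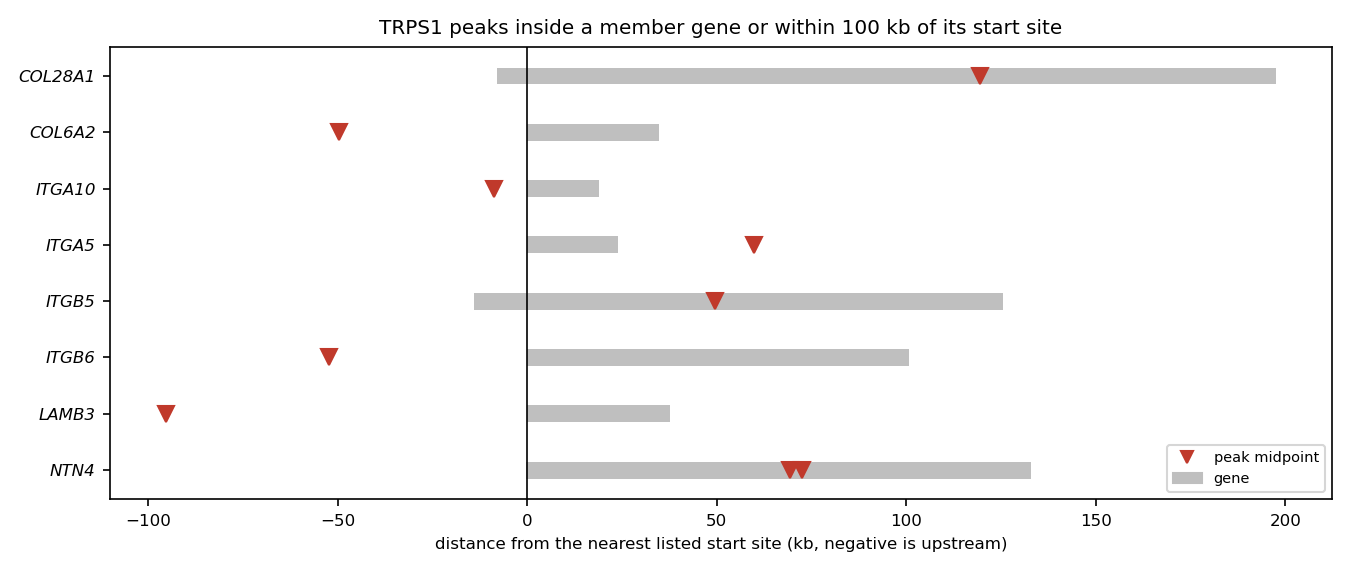
Midpoints of TRPS1 peaks (triangles) by distance in kb from the nearest listed start site of 8 genes of the set, negative upstream, with the gene as a grey bar. The 2 *NTN4* peaks sit together 69.2 and 72.6 kb into the gene, and none of the peaks lies at the start sites.

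The study designed primers for *NTN4*, which are shown because it is a gene of the set called in both knockdowns and held 2 peaks. The first pair served ChIP-qPCR and the other RT-qPCR. Their letters are 5′ to 3′, with no part marked, and where the ChIP pair lies against the 2 peaks was not analysed here.
NTN4-Qchip-F: agtaaggacttgttgaggct
NTN4-Qchip-R: ttttgatcttcactggttct
NTN4-QPCR-F: tcagcacaacacagaaggacagtattg
NTN4-QPCR-R: ggatggcaggaacacggtttgcaa

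Promoters were searched for the short motif that GATA factors read, of 6 letters, which is AGATAA or alternatively AGATAG, and the same with T as the first letter, on either strand. The search covered the 250 bases before the outermost start listed in RefSeq (GRCh38.p14), for 52 genes of the set. Of these promoters 7 held it (13.5%), against 23.0% of 27305 promoters of the same length. Those 27305 were not limited to genes with counts in these libraries, so the 2 shares come from unlike sets of genes. They belong to *COL17A1*, *COL21A1*, *ITGA2B*, *ITGA6*, *ITGAM*, *ITGB7* and *LAMA4*. Of these 7 genes *ITGA2B* and *ITGA6* were tested, and neither was called against control siRNA, while the other 5 were too low to test. The promoters of *COL27A1*, *COL7A1*, *COL8A2*, *COL5A1*, *LAMB3* and *NTN4* held none. Shown are the 250 bases before the start of *NTN4* and *COL27A1*, which were called in both knockdowns, and of *ITGB7*, which holds the motif 2 times, with the motif in capitals (CTATCT is AGATAG on the other strand). *NTN4* is at chr12:95791156-95791405 on the minus strand, *COL27A1* at chr9:114155287-114155536 on the plus strand, and *ITGB7* at chr12:53207252-53207501 on the minus strand.
NTN4: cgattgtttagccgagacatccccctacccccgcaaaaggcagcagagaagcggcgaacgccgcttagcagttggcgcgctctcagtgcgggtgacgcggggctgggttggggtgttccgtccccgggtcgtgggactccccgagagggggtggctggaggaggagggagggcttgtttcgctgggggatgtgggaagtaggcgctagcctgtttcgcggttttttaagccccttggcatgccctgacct
COL27A1: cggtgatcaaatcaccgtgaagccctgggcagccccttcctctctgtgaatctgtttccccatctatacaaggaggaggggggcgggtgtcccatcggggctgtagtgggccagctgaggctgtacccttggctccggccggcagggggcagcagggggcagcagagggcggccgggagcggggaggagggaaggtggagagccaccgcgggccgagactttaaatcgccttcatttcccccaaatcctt
ITGB7: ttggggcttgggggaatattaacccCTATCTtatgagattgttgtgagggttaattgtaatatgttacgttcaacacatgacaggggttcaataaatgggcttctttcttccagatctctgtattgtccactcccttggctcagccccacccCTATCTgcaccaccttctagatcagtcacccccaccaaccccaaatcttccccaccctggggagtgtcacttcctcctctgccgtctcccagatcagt

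In *ITGB7* the motifs begin 225 and 98 bases before the start. A match is a description of these letters and not a site, and its absence says only that the letters are not in this window.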

How the data were processed

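RNA-seq was measured in T47D cells with control, *TRPS1* or *CHD4* siRNA (2 libraries each) and ChIP-seq with TRPS1 antibodies and input (2 libraries each). According to the methods, the authors mapped RNA-seq reads with STAR and deposited unnormalized counts per gene. The submitters' processing notes name CASAVA 1.8, HTSeq 0.9.0, BWA 0.7.12-r1039, MACS2 2.1.1 and hg38. The deposited peak list holds positions only. Genes absent from 1 table were set to 0 there.

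Each comparison was fitted in edgeR 4.0.16 (R 4.3.3) over every gene that exceeded 2 CPM in 2 or more of its 4 libraries, with TMM factors, the quasi-likelihood F-test and a prior count of 0.125, and Benjamini-Hochberg adjustment over all tested genes. Each SE is the absolute log2 change over the root of F. The study's threshold is a fold change over 2 with unadjusted p under 0.05. Alternatives were a likelihood ratio test, DESeq2 1.42.0 (no independent filtering), scaling by RLE or by totals, 3 other filters, a joint fit of the 6 libraries, a replicate block, the prior count at 2, dropping each library, and other peak windows. The fits were tested on simulated data. Members and lists were chosen with earlier results of these data known. Full values are given for genes that were called, had a peak or study primers, or had the most counts in their subgroup. Gene positions, start sites and promoters are from RefSeq (GRCh38.p14). All 72 symbols matched a RefSeq gene. The values of 1 gene of the set are not reported here by name, though its values stand in the counts and medians. Counting strand and the gene annotation are not given in the sources used here, so reads of overlapping genes may be shared. Totals ran from 10333138 to 14668358 counts. Figures were drawn with matplotlib 3.10.9.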

Additional observations from a re-analysis of the deposited data

How the results depend on the processing

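The numbers of genes of the set called higher and lower with *TRPS1* siRNA, 4 and 1, became 7 higher without a filter on low counts or with a filter of 0.5 CPM, and 7 higher with the replicate block. Leaving out each library in turn gave 1 to 11 higher and 0 to 3 lower. The count at an adjusted p under 0.05, 0, became 1 with the likelihood ratio test and ranged from 0 to 17 with a library left out, the 17 without control replicate 2, where 47.7% of all genes passed. With *CHD4* siRNA, the 7 higher became 10 higher without a filter, 9 with a filter of 0.5 CPM and 10 with the replicate block. The 0 lower became 1 lower without a filter, with the likelihood ratio test and with DESeq2. Leaving out each library gave 1 to 13 higher and 0 to 4 lower, and from 0 to 15 genes at an adjusted p under 0.05, the 15 without control replicate 2, where 30.7% of all genes passed. That count was 2 with the likelihood ratio test, 2 with DESeq2 and 1 with the replicate block. Between the knockdowns, 2 higher and 1 lower became 4 higher without a filter, 5 higher at 0.5 CPM, and 1 higher and 0 lower with all 6 libraries in one fit, and 0 were lower with over 2 CPM in every library. Leaving out each library gave 0 to 2 lower. At an adjusted p under 0.05 the likelihood ratio test gave 1 gene of the set and the replicate block 15. The cause of these shifts was not tested. Filters also changed which genes were tested, and left-out libraries left fewer samples. Against control siRNA, removing either control raised the number of genes called higher and removing a knockdown library lowered it, both in the set and over all tested genes. Genes with a peak, 12, became 26 within 250 kb, 9 within 50 kb, and 3 within 250 kb when the peak's nearest listed start had to be the gene's own. The same rule within 100 kb, chosen after seeing the data, gave 2. The 20 genes of the set without a listed start could not meet this rule at either distance. Of 1211 values of single named genes under an alternative, 1092 kept direction and call, 27 lost the call, 31 gained it, 61 uncalled values changed sign, and 0 called values reversed. Replicate numbers gave no sign of pairing controls with knockdowns (correlation of deviations across genes 0.052 for *TRPS1* and 0.0098 for *CHD4* siRNA), so against controls the paired fit is an alternative only. The knockdowns' own numbers gave 0.615, a sign that their libraries of the same number shared variation. For that comparison the fit without the block was kept as the main one, and its count at an adjusted p under 0.05 depends on this choice. Scaling by library totals alone moved the median log2 fold change of all genes from -0.02 to 0.10 with *TRPS1* siRNA and from -0.02 to 0.11 with *CHD4* siRNA, and the calls were then 4 and 8 higher. With totals of 10333138 to 14668358 counts, 26 genes of the set were too low for any test.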
